A study of Mus musculus with 32 samples.

Results

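The regions described here are the H3K9me3 peaks that lie close to the distal end of each mouse autosome. H3K9me3, trimethylation of histone H3 at lysine 9, is a mark of heterochromatin. For each of chromosomes 1 to 19, the highest peak end found in any of 8 peak lists was taken as the distal edge. A peak belonged to the distal windows when its midpoint lay within 3 Mb below that edge. The windows span 57 Mb in all and hold 12439 of the 611609 peaks of the 8 lists. The lists hold 1060 such peaks at E13.5 in heterozygotes and 1225 in knockouts, 1515 and 1454 at E16.5, 1717 and 1863 at P0, and 1778 and 1827 at P3.

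The study profiled H3K9me3 by ChIP-seq in male germ cells from the testis at 2 embryonic stages (E13.5, E16.5, in days) and 2 postnatal ones (P0, P3). At each stage, Morc1 (+/-) animals (het) were compared with Morc1 (-/-) animals (KO), and no wild type was among the samples. Where paired values follow each other below, het comes before KO, and stage order is E13.5, E16.5, P0, P3. All animals, het included, carried the Mvh-Venus transgene, a fluorescent reporter driven from a germ cell gene. The labels list 32 samples in groups of 2, of which 16 were H3K9me3 and 16 were histone H3 immunoprecipitations. The deposited lists number 8, 1 for each H3K9me3 group, and carry peak positions only. There was therefore no replicate error and no p-value. Neither the identity of the cells nor their expression could be checked against marker genes in peak positions. Intervals are 95% intervals from peak numbers. They cover counting error only, and they treat neighbouring peaks as independent, which they are not. Read depth was not given in the sources used here, and it affects how many peaks are called and how wide they are. A mark present in fewer cells and a weaker mark in each cell cannot be told apart in these lists.

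MORC1 is a germ cell ATPase of the Microrchidia family that is known for its part in silencing transposable elements in fetal male germ cells. Mouse autosomes are telocentric: the centromere sits at the low-coordinate end, so the distal end is the one free end of the arm. In mammals, chromosome ends are known to carry heterochromatin marks, and the sequence next to the telomere repeats is often gene rich. The edge used here is the last called peak, not the end of the assembly, which was not read here.

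The distal windows contain few annotated promoters that were marked in every list. Some of these are shown, since their positions lay in a peak at all 4 stages in both genotypes. Of 694 RefSeq promoters of 573 genes in the windows (GRCm38.p6, 250 bases before to 50 after the gene start), 5 lay wholly inside a peak in all 8 lists. Among all 20085 autosomal promoters the share was 1.52%. The 5 belong to the olfactory receptor genes Olfr781, Olfr784, Olfr791 and Olfr792 on chromosome 10 and to Macc1, a regulator of MET signalling first described in colon cancer, on chromosome 12. Below, 3 of them are followed by the promoter of Vmn2r18, a vomeronasal pheromone receptor gene, which lay in no E13.5 peak and inside a peak in the 6 later lists. The last is the promoter of Tcfl5, a basic helix-loop-helix factor expressed in male germ cells, which is the contrast with the highest CpG content among the promoters touched in all 8 lists. A promoter here is a stretch around the annotated gene start, which need not be the start of transcription. In the Olfr792, Olfr781 and Macc1 stretches the last 50 bases begin with atg, so the annotated start may be a start codon. Letters are in lower case, and CG dinucleotides are in capitals.
Olfr792, chr10:129540289-129540588, plus strand: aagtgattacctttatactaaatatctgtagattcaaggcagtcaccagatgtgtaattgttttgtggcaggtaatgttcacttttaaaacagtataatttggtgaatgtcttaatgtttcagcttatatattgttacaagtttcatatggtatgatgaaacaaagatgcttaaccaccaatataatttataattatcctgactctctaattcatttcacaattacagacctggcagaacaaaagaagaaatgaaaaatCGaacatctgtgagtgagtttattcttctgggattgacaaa
Olfr781, chr10:129332633-129332932, plus strand: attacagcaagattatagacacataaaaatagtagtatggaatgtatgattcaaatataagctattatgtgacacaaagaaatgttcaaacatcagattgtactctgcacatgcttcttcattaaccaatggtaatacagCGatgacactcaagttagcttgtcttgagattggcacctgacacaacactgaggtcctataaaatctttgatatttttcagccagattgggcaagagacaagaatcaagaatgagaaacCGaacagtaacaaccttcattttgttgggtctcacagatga
Macc1, chr12:119443160-119443459, plus strand: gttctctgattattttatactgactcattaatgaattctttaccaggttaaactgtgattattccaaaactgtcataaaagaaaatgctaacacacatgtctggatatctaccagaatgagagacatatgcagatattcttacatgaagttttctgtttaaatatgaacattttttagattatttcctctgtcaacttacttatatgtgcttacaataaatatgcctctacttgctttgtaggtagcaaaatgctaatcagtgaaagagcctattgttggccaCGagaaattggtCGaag
Vmn2r18, chr5:151586875-151587174, minus strand: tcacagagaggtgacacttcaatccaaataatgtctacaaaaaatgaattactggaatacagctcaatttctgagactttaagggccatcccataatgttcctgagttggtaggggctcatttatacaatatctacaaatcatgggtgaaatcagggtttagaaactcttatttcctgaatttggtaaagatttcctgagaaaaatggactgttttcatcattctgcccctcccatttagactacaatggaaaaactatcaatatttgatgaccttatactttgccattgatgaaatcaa
Tcfl5, chr2:180642642-180642941, minus strand: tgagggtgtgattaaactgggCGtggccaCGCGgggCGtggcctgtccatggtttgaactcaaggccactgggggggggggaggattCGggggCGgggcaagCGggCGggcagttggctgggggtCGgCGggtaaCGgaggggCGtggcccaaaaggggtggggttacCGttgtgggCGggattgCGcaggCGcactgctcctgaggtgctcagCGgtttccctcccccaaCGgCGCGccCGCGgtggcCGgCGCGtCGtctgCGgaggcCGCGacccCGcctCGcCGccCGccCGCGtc

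The promoters marked in all 8 lists are poor in CpG. Those inside a peak in all 8 lists had a median GC content of 32.3% and a median of 1 CpG. The 618 distal promoters in no peak of any list had a median GC content of 59%, and the median over all distal promoters was 15 CpG. The same contrast held over all autosomes, where 306 promoters inside a peak in all 8 lists had medians of 37.3% and 1 CpG, against 57.7% and 15 for promoters in no peak. The Tcfl5 promoter shown above has a GC content of 73% and 35 CpG. It was wholly inside a peak in 5 lists and in part in the other 3.

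Summed over chromosomes, the distal 3 Mb was less covered by H3K9me3 peaks than the rest of the autosomes in each of the 8 lists. In the E13.5 het list, 4.89% of the distal windows and 6.71% of the rest were covered. The E13.5 KO list gave 5.81% and 7.63%. At E16.5 the values were 9.45% and 12.3% in het. The E16.5 KO list gave 8.74% and 11.3%. In these 4 embryonic lists the windows had less cover than the rest by similar proportions. At P0 the het list gave 11.1% and 12.9%. The P0 KO list gave 11.3% and 13.6%. At P3 the values were 10.9% and 11.6% in het, and 11.2% and 12.7% in KO. The ratio of distal to other cover was thus 0.729 and 0.761 at E13.5 (het, KO), 0.770 and 0.775 at E16.5, 0.859 and 0.835 at P0, and 0.935 and 0.882 at P3. Summed in this way, it was higher at each later stage in both genotypes. The median window was closer to the median of the other 771 tiles of 3 Mb, and its course was different. That ratio of medians was 0.943 and 0.971 at E13.5, 0.849 and 0.855 at E16.5, 0.975 and 0.945 at P0, and 1.002 and 0.963 at P3. By medians the gap was thus wider at E16.5 than at E13.5, and in P3 het the median window, at 10.23%, was not below that of the other tiles, at 10.21%. The first 3 Mb of the chromosomes, at the centromeric end, went the other way, with ratios to the rest of the autosomes between 1.15 and 1.36.

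The low mean depends on how far the windows reach, because cover was not even within them. In the outermost 0.5 Mb, the E13.5 het list had 6.88% covered and the E13.5 KO list 7.46%. The E16.5 values were 12.8% and 12.4%, those at P0 17.7% and 15.9%, and at P3 16.46% and 15.5%. In each list these outermost values were the highest, or in E13.5 KO the second highest, of the 6 half-megabase steps. Cover was far lower further in. Between 1.5 and 2 Mb below the edge it was 3.06% and 3.9% at E13.5, 5.88% and 5.33% at E16.5, 7.42% and 8.31% at P0, and 7.77% and 8.47% at P3. Against the rest of the autosomes, the median ratio over the 8 lists was 1.13 for the outermost 0.5 Mb (95% interval 1.02 to 1.26). It was 0.805 for the 3 Mb windows (0.766 to 0.846), where the lists ran from 0.729 to 0.935. Both intervals carry the counting error of a single list, not the spread between lists. With windows of 1 Mb the median ratio was 1.05. The rest had 6.71% and 7.63% covered at E13.5 and 12.3% and 11.3% at E16.5. After birth it had 12.9% and 13.6% at P0, and 11.6% and 12.7% at P3. The outermost step was thus near the rest at E13.5, below it in KO, and furthest above it after birth. The outermost value is affected by the definition of the edge, which always lies on a peak. Without the outermost 50 kb the median ratio of the outermost step was 1.08.

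**Figure D1:**
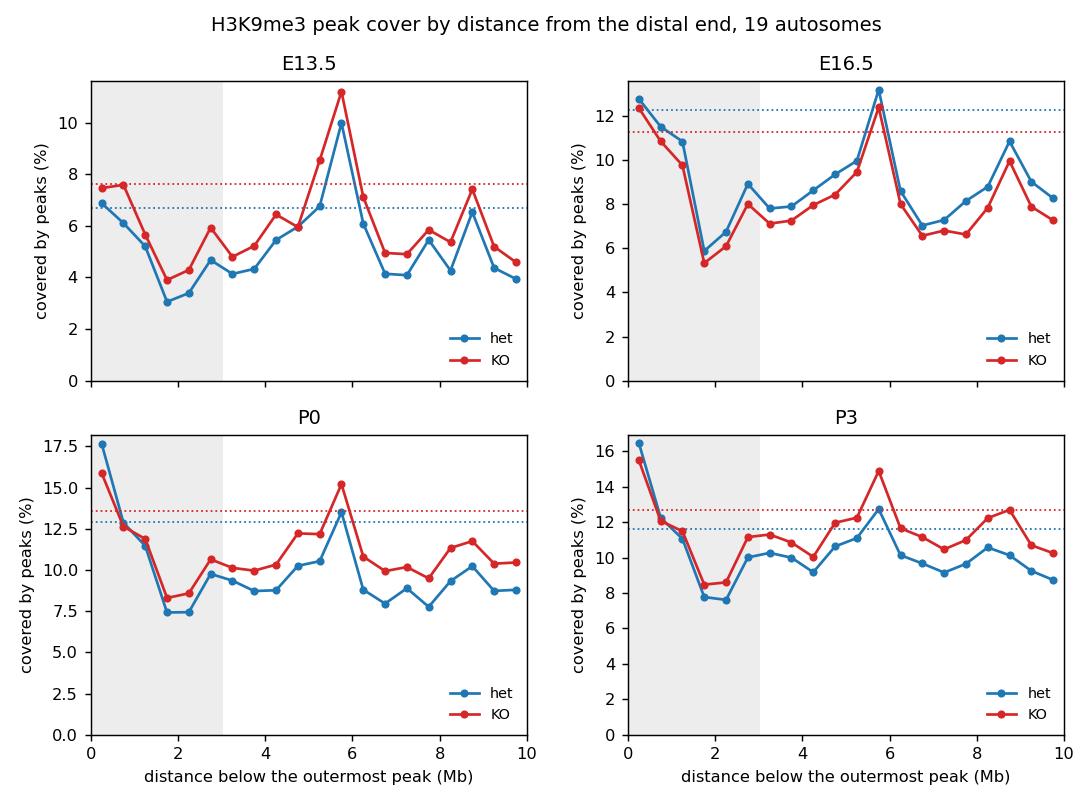
Percent of base pairs covered by peaks (y) in steps of 0.5 Mb below the outermost peak (x, Mb), summed over 19 autosomes, in het (blue) and KO (red), 1 panel per stage. Dotted lines are the rest of the autosomes and the grey area is the 3 Mb window; cover is high at the edge and lowest between 1.5 and 2.5 Mb, where P0 het is at 7.42% in the lowest step, against 17.7% at the edge.

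After birth the high edge was a feature of most chromosomes but not of all. At P0, 13 of 19 outermost half-megabases in het were above the median of all 4784 tiles of that size, against 50% by definition. At P3 it was 14 of 19 in het and 14 in KO. The embryonic lists had 13 and 12 at E13.5 and 11 and 13 at E16.5, which is nearer to 50% in E16.5 het. In P0 het the 19 values ran from 1.19% to 41.2% with a median of 16.7%, while the median of the other tiles was 9.24%. Peaks called in all 8 lists were also more frequent at the edge. Merging the lists gave 2762 distal sites, of which 618, or 22.4%, were called in all 8 (95% Wilson interval 20.9% to 24.0%). In the rest of the autosomes the share was 24.6%, and in the outermost 0.5 Mb it was 150 of 492, or 30.5%.

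The outermost peak itself was stable on some chromosomes and rare on others. It was called in all 8 lists on 6 chromosomes and in under 4 on 7. Its median width was 1822 bp and the widest, on chromosome 1, was 13514 bp. The P0 het list set the edge on 7 chromosomes and the E13.5 KO list on 4. On 10 chromosomes all 8 lists reached to within 10 kb of the edge. The largest distance was 201084 bp, on chromosome 7 in E13.5 KO. The rarely called ends are these. On chromosome 2, chr2:182001606-182003256 (mm10) was called in P0 het and in both P3 lists. On chromosome 4, chr4:156254908-156255908 was called in E13.5 het alone, and it contains the promoter of Samd11. On chromosomes 9 and 19, chr9:124476067-124477067 and chr19:61311651-61313303 were called in both E13.5 lists alone. The chromosome 9 peak overlaps the promoter of Ppp2r3d, a regulatory subunit gene of protein phosphatase 2A. On chromosome 12, chr12:120021645-120023056 was called in both P3 lists alone. On chromosome 16, chr16:97985564-97990836 was called in both P0 lists and P3 het. On chromosome 17, chr17:94846460-94848281 was called in both P0 lists alone. None of these 7 peaks was called at E16.5.

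Distal peaks were narrower than other peaks at E13.5 and close to them in width at P0. At E13.5 the median width was 1712 bp in het (95% interval 1597 to 1830) against 1860 bp in the rest, and 1784 bp in KO (1666 to 1828) against 1908 bp. At E16.5 the medians were 2330 bp against 2395 bp in het and 2227 bp against 2370 bp in KO. At P0 they were 2483 bp against 2482 bp in het and 2350 bp against 2346 bp in KO, and at P3 2526 bp against 2557 bp and 2477 bp against 2578 bp. Both E13.5 intervals and that of E16.5 KO (2083 to 2344) lie wholly below the other peaks' median. The interval of E16.5 het (2194 to 2467) and those of both genotypes at P0 and P3 contain it. In the outermost 0.5 Mb the median width was above that of the rest in each list. It was 1869 and 2074.5 bp at E13.5 and 2832.5 and 2674.5 bp at E16.5. After birth it was 3139.5 and 2904 bp at P0 and 2910 and 2742 bp at P3. Peaks of at least 10 kb, here called domains, made up 1.98% of distal peaks in E13.5 het (1.30% to 3.01%) and 4.50% of the others. In E13.5 KO they made up 2.45% (1.72% to 3.47%) and 4.78%. At E16.5 the distal shares were 5.35% (4.32% to 6.60%) in het and 4.81% (3.83% to 6.04%) in KO, with 6.62% and 6.201% elsewhere. In P0 het they made up 5.94% (4.92% to 7.16%) and 5.96%, in P0 KO 4.72% (3.85% to 5.78%) and 5.70%, in P3 het 4.44% (3.58% to 5.50%) and 4.75%, and in P3 KO 4.38% (3.53% to 5.42%) and 5.25%. The distal share was lower in each list, and in the 4 embryonic lists its interval lies below the share elsewhere.

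From the first stage to the last, distal cover was higher by a larger factor than cover elsewhere. From E13.5 to E16.5 the covered length was 1.93 times as high in het (1.79 to 2.09), against 1.83 times in the rest. In KO it was 1.50 times as high (1.39 to 1.62), against 1.48 times. From E16.5 to P0 the ratios were 1.176 against 1.05 in het and 1.30 against 1.20 in KO. From P0 to P3 covered length was lower elsewhere, at 0.898 in het and 0.936 in KO, and distal values were 0.977 and 0.990. Over the whole course, P3 to E13.5, the distal ratio was 2.22 in het (2.06 to 2.40) against 1.73, and 1.93 in KO (1.80 to 2.08) against 1.67. Relative to the rest, each single step from E13.5 to E16.5 was within counting error, at 1.06 in het (0.976 to 1.14) and 1.02 in KO (0.943 to 1.10).

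Chromosome by chromosome, the count of windows that moved was read against all 790 tiles of 3 Mb. Cover was higher at P0 than at E16.5 in het in 19 of 19 windows, against 79% of all tiles. It was higher at P3 than at P0 in 12 of 19 windows in het, against 38.5% of tiles, and in 12 of 19 in KO, against 41.9%. The 12 chromosomes, 1, 2, 4, 6, 7, 8, 9, 11, 13, 15, 16 and 19, were the same in both genotypes. From E13.5 to E16.5, cover was higher in 19 of 19 windows in het (99.2% of tiles) and in 16 of 19 in KO (92%).

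Between genotypes, the windows followed the rest of the autosomes in direction at each stage. The KO to het ratio of covered length was 1.19 at E13.5 (1.09 to 1.29), 0.925 at E16.5 (0.860 to 0.994), 1.02 at P0 (0.955 to 1.09) and 1.03 at P3 (0.967 to 1.10). In the rest it was 1.14, 0.918, 1.05 and 1.09. The distal ratio divided by that of the rest was 1.04 at E13.5 (0.961 to 1.13), 1.01 at E16.5 (0.936 to 1.08), 0.972 at P0 (0.909 to 1.04) and 0.944 at P3 (0.883 to 1.01). Each of these 4 intervals contains 1, so no difference of the 3 Mb windows from the rest was detectable between genotypes.

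By chromosome, KO was higher than het in 19 of 19 windows at E13.5, where 97.2% of all tiles were. Het was higher in 19 of 19 at E16.5, against 97% of tiles. KO was higher in 15 of 19 at P0 (71.5% of tiles) and in 14 of 19 at P3 (84.7%). The exceptions after birth were nearly the same. Chromosomes 13, 14, 17 and 18 had more cover in het at both P0 and P3, which was 4 of 19 windows against 13.8% of tiles, and chromosome 12 did so at P3 alone. No window was higher in the same genotype at all 4 stages, and 2.15% of tiles were higher in KO at all 4.

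**Figure D2:**
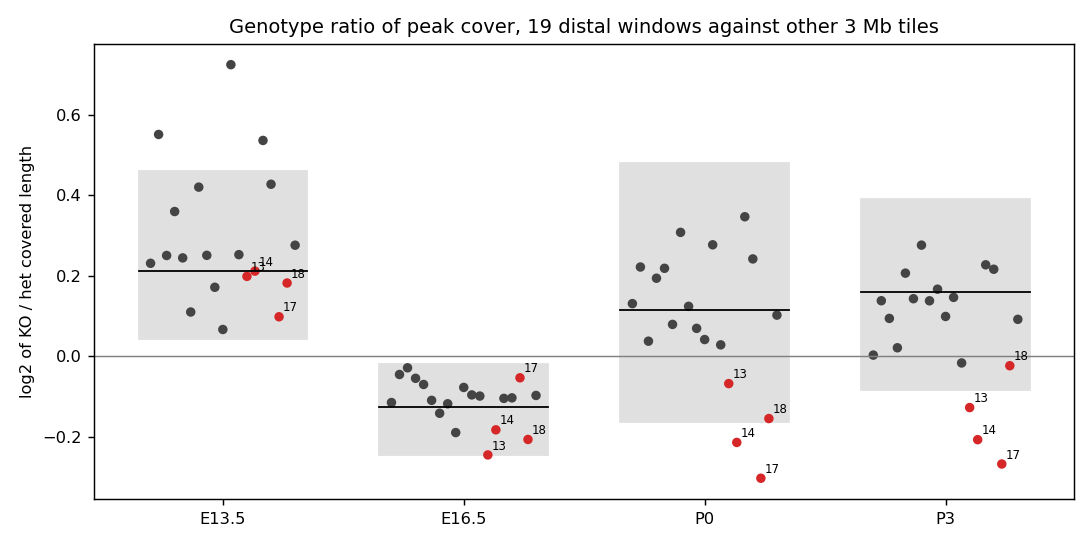
Log2 of KO over het covered length (y) in each of the 19 distal windows (points, in chromosome order from left to right) at each stage (x). Grey boxes run from the 5th to the 95th percentile of the 771 other 3 Mb tiles and the black line is their median; the red points, chromosomes 13, 14, 17 and 18, are above 0 at E13.5 and below 0 at the 3 later stages.

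The extremes at each stage were as follows. At E13.5, KO to het was 1.65 on chromosome 11 and 1.46 on chromosome 2, and lowest on chromosomes 10 (1.05) and 17 (1.07). At E16.5 it was highest on chromosomes 3 (0.980) and 2 (0.969), and lowest on chromosomes 13 (0.844) and 18 (0.867). At P0 chromosomes 15 (1.27) and 7 (1.24) were highest, and 17 (0.811) and 14 (0.862) lowest. At P3 the same pairs held these places, with 1.21 on chromosome 7, 1.17 on 15, 0.831 on 17 and 0.866 on 14. Chromosomes 14 and 17 were below the 5th percentile of the other tiles at P0 (0.893) and at P3 (0.943), and chromosome 13 was below it at P3, with 0.916.

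After birth the genotype ratio was below 1 from the edge to 1 Mb and above 1 from 1 to 3 Mb, although each interval contains 1. At P0, KO to het was 0.899 in the outermost 0.5 Mb (0.779 to 1.04) and 1.15 between 2 and 2.5 Mb (0.974 to 1.37). At P3 the same steps gave 0.941 (0.818 to 1.08) and 1.13 (0.95 to 1.34). Taken relative to the rest, the outermost step gave 0.857 at P0 (0.742 to 0.988) and 0.860 at P3 (0.747 to 0.990). At E13.5 the outermost step was also the lower of these (1.08 and 1.26), with both above 1, and at E16.5 the order was the other way (0.968 and 0.903). The division at 0.5 Mb was drawn after the profile had been seen, and the step from 2 to 2.5 Mb had the highest postnatal ratios in the windows. These intervals are therefore a description and test nothing. The step also hangs on the edge, which the P0 het list set on 7 chromosomes and the P0 KO list on 2, while each P3 list set it on 1. Without the outermost 50 kb the relative ratio was 0.865 at P0 and 0.872 at P3.

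Counts over chromosomes come from the same lists and the same division, so they are no separate support. They had the same order at the edge and from 1 to 3 Mb. In the outermost 0.5 Mb, het was higher than KO on 13 of 19 chromosomes at P0, against 32.1% of all 0.5 Mb tiles. At P3 it was higher on 11 of 19, against 25%, and on the same 11 at both stages, against 18.6%: chromosomes 1, 2, 6, 8, 9, 10, 13, 14, 17, 18 and 19. Between 2 and 2.5 Mb, the step with the highest ratios, KO was higher on 17 of 19 chromosomes at P0 (66.8% of tiles) and on 16 of 19 at P3 (73.7%). The other inner steps were lower or alike. From 0.5 to 1 Mb KO was higher on 11 at P0 and 10 at P3, although the summed ratios there were below 1 (0.982 and 0.985). From 1 to 1.5 Mb it was higher on 14 and 12. From 1.5 to 2 Mb it was higher on 12 and 15, and from 2.5 to 3 Mb on 16 and 16. Leaving out chromosome 17, the outermost ratio relative to the rest was 0.884 at P0 and 0.877 at P3.

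Chromosome 14 shows this turn within a single window, and chromosome 17 does not. On chromosome 14 the outermost 0.5 Mb had 105.0 kb under peaks in P0 het and 81.7 kb in P0 KO. The next step had 90.4 and 65.0 kb, and the step after it 71.1 and 55.3 kb. Between 2 and 2.5 Mb the order was reversed, with 25.8 kb in het and 30.2 kb in KO, and in the last step there were 38.4 and 47.9 kb. At P3 the first step had 90.1 and 69.0 kb and that between 2 and 2.5 Mb had 21.1 and 28.8 kb, so the turn was present in both postnatal pairs. On chromosome 17 the outermost 0.5 Mb had 122.3 kb in P0 het and 67.0 kb in P0 KO, and 118.2 and 86.0 kb at P3. The innermost step there also had more in het, with 202.6 kb against 167.2 in KO at P0, and 160.4 kb against 122.4 at P3.

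Single calls were compared next. A peak with no base in common with the other genotype's list of its stage was counted as genotype-only. Distal peaks were het-only in 10.9%, 11.7%, 11.7% and 16.3% over the 4 stages in order, and KO-only in 24.4%, 6.95%, 18.8% and 19.7%. Elsewhere the shares were 11.4%, 13.7%, 11.6% and 13.6% for het and 21.4%, 6.72%, 19.6% and 20.6% for KO. The P3 het share (14.7% to 18.1%) and the E13.5 KO share (22.1% to 26.9%) were above those of the rest, and the E16.5 het share was below it (10.2% to 13.47%). At the edge the balance was different: in the outermost 0.5 Mb, 14.03% of P0 het peaks (10.9% to 17.8%) and 9.37% of P0 KO peaks (6.78% to 12.8%) were genotype-only. Of long calls, at least 3 kb, 49 of 719 distal P0 het peaks were het-only (6.82%) and 8 of 722 P0 KO peaks were KO-only (1.11%). In the rest these shares were 5.82% and 1.27%, so the asymmetry was not particular to the ends.

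Genotype-only calls that recurred at both postnatal stages were counted in bins of 1 kb, a bin being called with 50% or more of its length under a peak. In the windows 472 bins were het-only and 308 KO-only at both P0 and P3, a ratio of 1.53. In the rest there were 18018 and 15064, a ratio of 1.20. The outermost 0.5 Mb had 125 and 41, a ratio of 3.05, and the inner 2.5 Mb had 347 and 267, a ratio of 1.30. Chromosome 17 held 92 of the 472 het-only bins (19.5%), chromosome 14 held 60, chromosome 18 held 52 and chromosome 13 held 40. Without chromosome 17 the ratio was 1.28 in the windows and 2.60 in the outermost 0.5 Mb. In the outermost step, het-only bins were more numerous on 13 chromosomes, but in the whole windows on 8 of 19, against 15 of 19 in the rest. The windows of chromosomes 13, 14, 17 and 18, which had more cover in het at both stages, together held 244 het-only and 62 KO-only bins. The other 15 windows held 228 and 246, a ratio of 0.927. Those 4 were picked by their cover in the same postnatal lists, so this split follows in part from the choice and tests nothing. In the outermost 0.5 Mb the other 15 had 78 and 37, a ratio of 2.11. The same-stage agreement of the lists, as base pairs in both over base pairs in either, was 0.667, 0.795, 0.690 and 0.657 in the windows over the 4 stages and 0.716, 0.799, 0.702 and 0.669 elsewhere.

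Cover differed widely between the 19 windows. Averaged over the 8 lists, chromosome 18 was covered to 16.99%, chromosome 3 to 16.6% and chromosome 17 to 15.2%. At the other end were chromosome 11 with 3.87%, chromosome 2 with 4.24% and chromosome 15 with 4.44%. The chromosome 18 window ranged from 9.25% in E13.5 het to 22.1% in P0 het, the chromosome 3 window from 11.1% to 19.4%, and the chromosome 17 window from 5.71% in E13.5 het to 23.3% in P0 het. The chromosome 11 window ranged from 2.08% to 6.2%, that of chromosome 2 from 2.17% to 6.77%, and that of chromosome 15 from 2.63% to 6.25%. The highest list of each low window was below the lowest list of chromosomes 3 and 18. Chromosome 10, next in order with a mean of 15.1%, held the largest number of genes of the 19.

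**Figure D3:**
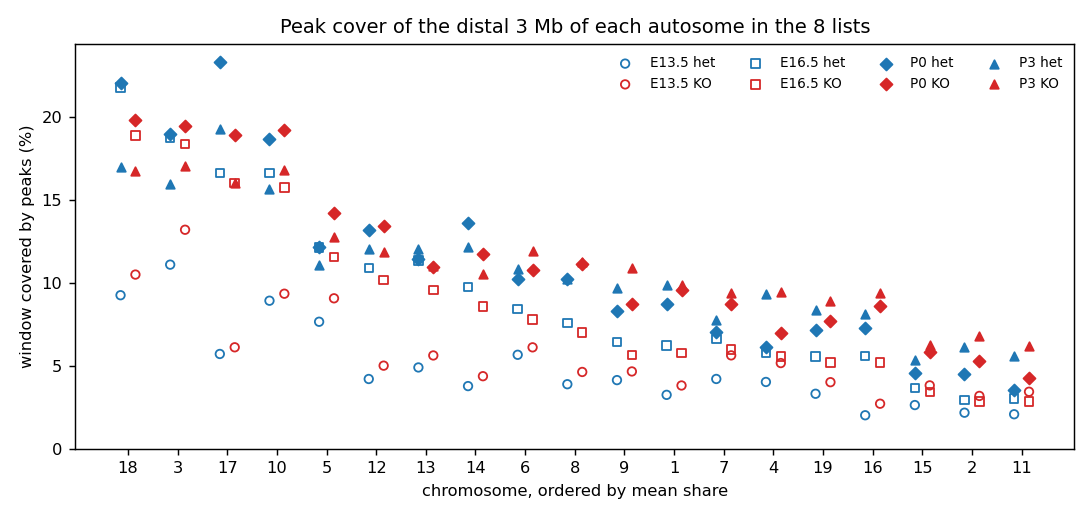
Percent of the distal 3 Mb covered by peaks (y) on each autosome (x, ordered by the mean of the 8 lists), with het in blue, KO in red and 1 marker shape per stage. Chromosomes 18, 3, 17 and 10 stand above the others at the postnatal stages, and chromosomes 15, 2 and 11 stay at or below 6.77% in all lists.

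Windows with more genes had less cover. The windows held a median of 23 protein-coding genes, from 2 on chromosome 17 to 131 on chromosome 10, and the other tiles a median of 18. Spearman's rho between gene number and cover over the 19 windows was between -0.30 and -0.71 in the 8 lists, and over all 790 tiles between -0.25 and -0.52. These are descriptions over windows that share the same libraries. Chromosomes 11, 2 and 15 held 83, 63 and 84 genes, and chromosomes 18 and 3 held 6 and 11. The KO to het ratio ran with gene number after birth, with rho of 0.62 at P0 and 0.56 at P3 over the windows and 0.47 and 0.31 over the tiles. At the embryonic stages rho over the windows was 0.34 and 0.13, and over the tiles 0.39 and 0.26. Chromosomes 13, 14, 17 and 18, with more cover in het after birth, held 23, 15, 2 and 6 genes. The part of gene number in that difference was not tested. When the rest was weighted to the gene numbers of the windows, the cover ratio was 0.885 in place of 0.805. Among the fifth of tiles with the most genes, 7 distal windows had 4.02% covered in E13.5 het against 5.98% in the other 151, and 8.50% against 9.14% in P3 het. With fewer genes the order was not always this. In P3 het, 3 distal windows with 23 to 39 genes had 10.40% against 9.04%, and the 2 with at most 8 genes had 18.1% against 16.4%. In P0 het the same classes gave 9.61% against 9.25% and 22.7% against 20.04%.

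**Figure D4:**
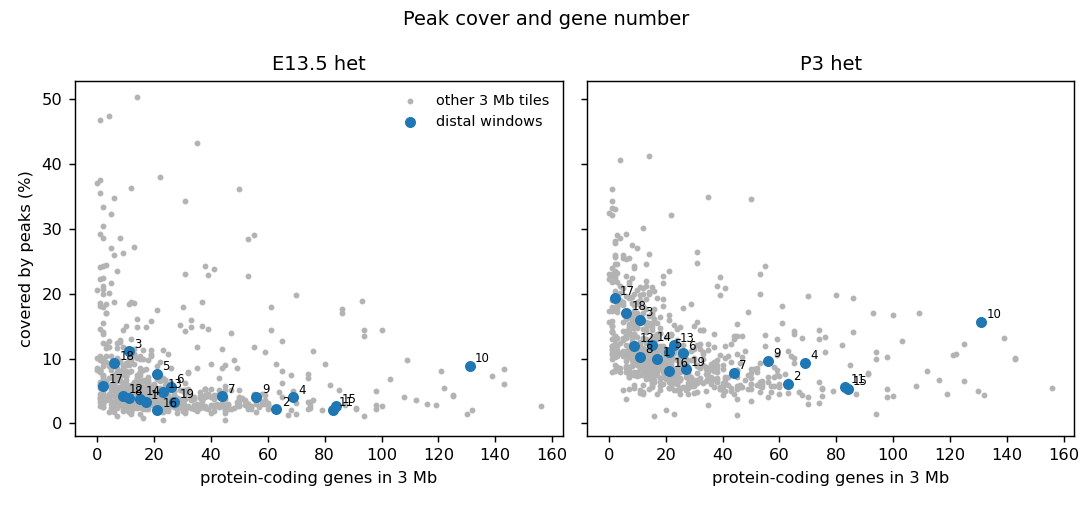
Percent of 3 Mb covered by peaks (y) against the number of protein-coding genes in it (x), in E13.5 het (left) and P3 het (right), for the distal windows (blue, labelled by chromosome) and the other tiles (grey). Cover is low where genes are many; chromosome 10, with 131 genes, is the distal window that stands furthest above others with many genes.

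The chromosome 10 window holds an olfactory receptor cluster. Olfactory receptor genes are expressed in sensory neurons of the nose, where the silent members are known to be held under H3K9me3. The windows hold 58 Olfr genes, and 27 had a call in at least 1 list (46.6%), as did 45.1% of 1104 autosomal Olfr genes and 56.1% of all autosomal protein-coding genes. In the E13.5 lists 10 and 7 genes were called (het, KO), in the E16.5 lists 21 and 20, in the P0 lists 20 and 22, and in the P3 lists 17 and 20. Over all genes the share with a call was 30.7% and 34.2% at E13.5, 33% and 32.1% at E16.5, 35% and 40.1% at P0, and 39% and 41.7% at P3. Their covered length was 8.26, 15.9, 16.97 and 13.7 kb across the het series and 6.84, 16.8, 19.2 and 16.9 kb across the KO series. The main difference lay between the embryonic stages. The longest distal peak of E16.5 KO lay here, a domain of 51.0 kb at chr10:129455070-129506092 (mm10) over Olfr787, Olfr788, Olfr789 and Olfr790. Over those positions peaks covered 5.26, 47.0, 33.9 and 35.4 kb in the 4 het lists in stage order and 4.70, 51.0, 36.7 and 39.0 kb in the KO lists. The promoters of Olfr776, Olfr790, Olfr798 and Olfr799 lay in no E13.5 peak and wholly inside a peak in the 6 later lists. Outside this family, so did those of Vmn2r18 and Acte1 and a promoter of Gm20783. The share of all autosomal promoters with this pattern is not given here. Those of Olfr775 and Olfr807 lay wholly inside a KO peak and in no het peak at both P0 and P3, with no promoter in the opposite case. The share of all autosomal promoters with either pattern is not given here, so no direction is read from these 2.

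The other receptor and structural gene families in the windows were fewer. Counts of called members in these families are small and are read against the 56.1% of all genes. Of 5 Vmn2r genes, 4 had a call in some list (48.3% of all autosomal Vmn1r and Vmn2r genes), with 3.99, 20.8, 27.9 and 24.6 kb covered across the het series and 7.85, 22.1, 26.9 and 25.7 kb across the KO series. Of 26 keratin genes, the intermediate filament genes of the chromosome 15 cluster, 13 had a call (50%, and 33.9% of 112 autosomal Krt genes). Their covered length was 8.22, 11.8, 16.04 and 24.2 kb across the het series and 6.58, 10.6, 23.1 and 31.2 kb across the KO series. Of the 26, 7 were called in each postnatal het list and 10 and 12 in the KO lists. Over all genes the share with a call was 35% and 40.1% at P0 and 39% and 41.7% at P3. KO was thus higher over all genes too, and no keratin direction is read from these counts. The single Tbc1d gene, Tbc1d16, had no call at E16.5 and at most 4.28 kb. No protocadherin, Defb defensin or histone gene touched a window.

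Of 11 Zfp and Zkscan genes near the ends, 4 had a call in some list. Over all autosomes the share was 62.7% of 418 Zfp, Zkscan and Zscan genes, and the 11 distal genes are few. Zfp445, whose protein is a KRAB zinc finger factor known for maintaining imprints, had 19.7, 21.5, 12.9 and 19.6 kb covered across the het series and 19.6, 18.3, 18.2 and 16.6 kb across the KO series, with no constant order of genotypes. Zfp131 was covered over 3.55 and 3.84 kb at E13.5 and had no call in the 6 later lists. Zfp950 had no call at E13.5, 1.00 kb in E16.5 KO alone, then 13.49 and 15.6 kb in the postnatal het lists, where the KO lists had 3.70 and 7.495 kb. Het was higher in both postnatal pairs of Zfp950.

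On distal chromosome 7 lies an imprinted cluster whose 18 listed genes all touch the window. The cluster contains Igf2 and H19, with a growth factor and a long non-coding RNA, and the Kcnq1 domain, where the non-coding Kcnq1ot1 is transcribed from an intron of the potassium channel gene Kcnq1. Calls in some list were found for 9 of the 18, close to the 56.1% of all genes, and the cover was nearly all in Kcnq1 and the overlapping Kcnq1ot1. Kcnq1 had 63.9, 50.5, 42.7 and 42.8 kb covered in the 4 het lists in stage order, and 72.5, 48.5, 50.7 and 50.2 kb in the KO lists. It was one of 56 distal genes with less cover at E16.5 than at E13.5 in both genotypes. Kcnq1ot1 had 55.7 and 60.9 kb at E13.5 and 29.2 and 31.4 kb at P3, but the transcripts overlap and the peaks cannot be assigned to one. The longest distal peak at E13.5 lay here, chr7:143225011-143274583 in het (49.6 kb) and chr7:143225106-143275491 in KO (50.4 kb), in Kcnq1. Over the het interval peaks covered 49.6, 36.0, 31.0 and 27.1 kb in the 4 het lists in stage order and 49.5, 35.8, 29.9 and 28.7 kb in the KO lists. The domain was shorter at each later stage and alike in het and KO.

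The remaining imprinted genes had little cover. Osbpl5, an oxysterol-binding protein gene, had 3.99, 6.91, 8.18 and 11.0 kb across the het series and 5.11, 6.44, 10.1 and 12.4 kb across the KO series, the opposite course to Kcnq1. Igf2 had at most 3.38 kb, in E13.5 KO. The growth inhibitor gene Cdkn1c was called at E13.5 alone, over 1.05 and 1.69 kb. Dhcr7, which encodes an enzyme of cholesterol synthesis, was called in P0 het (3.75 kb) and P3 het (3.93 kb) and in none of the other 6 lists. H19, Ins2, Th, Ascl2, Tspan32, Cd81, Tssc4, Nap1l4 and Nadsyn1 had no call in any list.

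Of the 726 protein-coding genes that touch the windows, 180 and 206 had a call at E13.5 (het, KO), 177 and 177 at E16.5, 202 and 229 at P0, and 257 and 270 at P3. The share was 24.8% in E13.5 het and 35.4% in P3 het, against 30.7% and 39% of all autosomal genes. By length, 2.78% of distal gene sequence was covered in E13.5 het and 3.42% of that of other genes. In P3 het the order was the other way, with 7.12% and 6.60%, while P3 KO gave 7.70% and 7.88%.

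By the mean of the 8 lists, the most cover lay in Fgf14, Dok6 and Kcnq1, with 75.2, 56.1 and 52.7 kb. Kcnq1 was the highest of these at E13.5, as given above. Fgf14, which encodes an intracellular fibroblast growth factor that modulates sodium channels, had 28.3, 85.9, 121.2 and 98.1 kb in the 4 het lists in stage order and 32.4, 75.7, 90.3 and 69.8 kb in the KO lists. KO was above het at E13.5 and below it at the 3 later stages. The other 5 symbols that start with Fgf added little: in E13.5 KO all 6 together had 33.9 kb. Its neighbour Itgbl1, an integrin beta-like gene, had 11.4, 38.9, 63.7 and 61.5 kb across the het series and 11.0, 31.4, 41.0 and 32.3 kb across the KO series, with het above KO at all 4. Nalcn, a sodium leak channel gene next to it, had 6.83, 24.3, 43.2 and 30.7 kb in the 4 het lists in stage order and 9.52, 20.8, 31.7 and 25.4 kb in the KO lists. Further from the end the order turned. Pcca, which encodes a subunit of the mitochondrial propionyl-CoA carboxylase, had 12.1, 45.0, 58.8 and 60.3 kb across the het series and 11.0, 37.3, 65.6 and 73.9 kb across the KO series. Clybl, a mitochondrial citramalyl-CoA lyase gene, had 6.04, 5.92, 6.19 and 3.51 kb in the 4 het lists in stage order and 8.25, 6.32, 10.4 and 7.24 kb in the KO lists. The midpoints of Fgf14, Itgbl1 and Nalcn lie 0.410, 0.917 and 1.28 Mb from the edge, and those of Pcca and Clybl 2.05 and 2.45 Mb. On chromosome 18 Dok6, an adaptor of receptor tyrosine kinases, had 15.7, 73.7, 82.6 and 60.7 kb across the het series and 16.8, 61.8, 74.5 and 62.7 kb across the KO series.

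**Figure D5:**
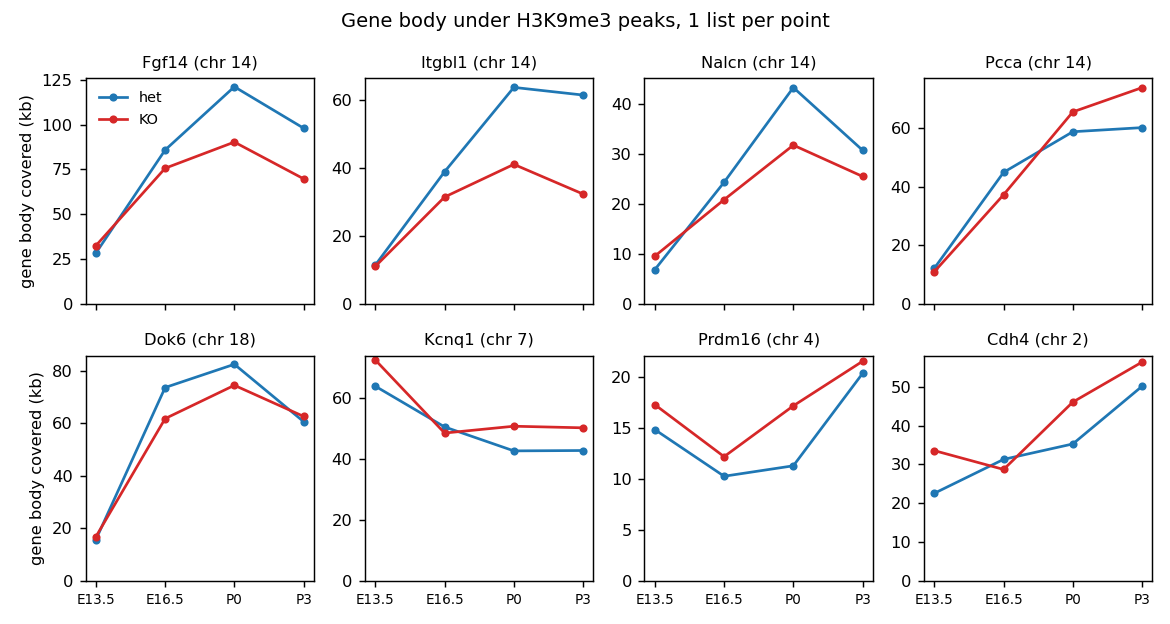
Length of gene body under peaks (y, kb, from 0) at the 4 stages (x) in het (blue) and KO (red) for 8 distal genes, chosen after their values were seen. In Fgf14, Itgbl1 and Nalcn het is above KO at P0 and P3, while in Pcca, Prdm16 and Cdh4 KO is above het at both.

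Other genes among the 10 with most cover were Ptprn2, Far2, Ccdc7b, Cdh4 and Slc35f3. Their means over the lists were 42.2, 41.7, 41.2, 38.0 and 34.7 kb. Ptprn2 is a receptor-type phosphatase gene of secretory vesicles, Far2 a fatty acyl-CoA reductase gene and Cdh4 the gene of R-cadherin. Their P0 values were 58.1 kb in het and 61.8 kb in KO for Ptprn2, 48.6 and 50.4 kb for Far2, 56.9 and 59.9 kb for Ccdc7b, 35.3 and 46.1 kb for Cdh4, and 35.3 and 43.3 kb for Slc35f3. In each of these 5 the KO list had more at P0.

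A constant order of genotypes was rare. Of 379 distal genes with a call, 17 had more cover in KO at all 4 stages, against 5.44% of all autosomal genes with a call. Among these were Prdm16, Wdr95, Resf1, Clybl and 9430015G10Rik. Prdm16, a transcription regulator of the PR domain family, had 14.8, 10.3, 11.3 and 20.3 kb in the 4 het lists in stage order and 17.3, 12.2, 17.2 and 21.5 kb in the KO lists. Resf1, known as a factor in silencing retroelements, had 7.35, 7.37, 1.00 and 7.84 kb across the het series and 8.07, 9.21, 3.91 and 11.0 kb across the KO series. More cover in het at all 4 stages was found for 3 genes, Itgbl1, Olfr773 and Mansc4, against 1.12% of all. Those 3 and 17 are shares close to the background. For Olfr773 and Mansc4 the smallest differences were under 0.1 kb.

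From E13.5 to E16.5, 113 of the 379 distal genes with a call had more cover in both genotypes and 56 had less. Of all 11584 autosomal genes with a call, 35.4% had more and 15.2% less. The largest decreases were in Kcnq1, Noc2l, Prdm16, Tbcd and Zfp131. Noc2l, whose product inhibits histone acetylation, had 5.29 and 5.70 kb at E13.5 and none at E16.5 and P0. Tbcd, a tubulin folding cofactor gene, had 4.13 kb in het and 4.57 kb in KO to begin with, none at E16.5, and 10.1 and 4.48 kb in the P3 lists. The largest gains of this step were in Dok6, Fgf14, Pcca, Ptprn2 and Itgbl1.

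From P0 to P3, 138 of the 379 genes had more cover in both genotypes and 44 had less, against 34.9% and 18.1% of all genes with a call. Rbfox3, a neuronal splicing factor gene, went from 26.1 to 39.3 kb in het and from 40.2 to 52.4 kb in KO. Hhat, which encodes the Hedgehog acyltransferase, went from 27.2 to 40.8 kb in het and from 33.5 to 45.1 kb in KO. Cdh4, Rptor (a subunit of the mTORC1 kinase complex) and Cfap74 (a gene of cilia and flagella) followed. Rptor went from 5.02 to 16.9 kb in het and from 7.28 to 17.2 kb in KO. The largest decreases were in Fgf14, Dok6, Ccdc7a, Ccdc7b and Nalcn, which lie on chromosomes 8, 14 and 18. Ccdc7a went from 18.1 to 9.45 kb in het and from 23.3 to 11.6 kb in KO.

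A domain outside genes on chromosome 3 was nearly the same in all lists. The peak chr3:159249826-159283311, between Lrrc7 and Depdc1a, was 33.5 kb long in E16.5 het and the longest distal peak of that list. The same domain was the longest member of the P0 KO, P3 het and P3 KO lists. Over the E16.5 het interval, peaks covered between 33.2 and 33.5 kb in all 8 lists. On chromosome 18, chr18:89939880-89977580 between Dok6 and Tmx3 was the longest in P0 het, at 37.7 kb. Over it peaks covered 20.4, 35.6, 37.7 and 31.5 kb in the 4 het lists in stage order and 28.1, 27.4, 31.7 and 30.1 kb in the KO lists.

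Of the longest genotype-only peaks of the 4 stages, 8 in all, some were called in 1 genotype alone at a further stage too. At E13.5 the longest het-only peak, chr10:129039824-129045353 (5.53 kb, between Olfr763 and Olfr765), was covered over at least 5.48 kb in 6 of the 8 lists, and the other 2 were the KO lists of E13.5 and P3, so it was het-only again at P3. On the KO side of E13.5, the longest, chr15:102933765-102938132 (4.37 kb, at Hoxc12), was called in no other list. Hoxc12 belongs to the HoxC cluster of body-axis regulators. At E16.5 the longest het-only peak was chr18:89929464-89948053 (18.6 kb), covered over 16.545 kb in P0 KO. On the KO side of E16.5, the longest, chr19:60468173-60474392 (6.22 kb, at Prlhr, a neuropeptide receptor gene), was called in 5 other lists, but not in P3 KO, and so was het-only at P3. At P0 the longest het-only peak was chr17:94485024-94500813 (15.8 kb, between Adcyap1 and Mettl4), where P3 KO had 13.8 kb and, at E13.5, het alone had 1.27 kb. The longest KO-only peak at P0, chr8:127665634-127669647 (4.01 kb, between Pard3 and Nrp1), had 3.61 kb in P3 KO and nothing in the other 6 lists, so it was KO-only at both postnatal stages. At P3 the longest het-only peak was chr1:194408096-194420857 (12.8 kb, between Camk1g and Plxna2), with 11.3 kb in P0 KO. The longest KO-only peak at P3, chr6:147291040-147298205 (7.17 kb, between Pthlh and Ccdc91), had 3.35 kb in P0 KO, none in P0 het, and calls in all 4 embryonic lists, so it too was KO-only at both postnatal stages.

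The share of promoters near the ends that lay inside a peak was close to that of all promoters in most lists. The distal share was 1.87% in E13.5 het (1.10% to 3.18%), where all autosomal promoters gave 3.36%, and 3.89% in E13.5 KO (4.44% of all). In the E16.5 lists it was 2.88% and 3.31% (3.81% and 3.62% of all), at P0 3.75% and 4.32% (3.93% and 4.35%), and at P3 3.17% and 4.32% (3.53% and 4.15%). The interval lay below the share of all promoters in E13.5 het alone. At E13.5, 13 distal promoters were inside a het peak and 27 inside a KO peak. The promoters of Emx2 and Vax1, homeobox genes of the developing brain, and of the endoderm factor gene Gata5 were inside a peak in E13.5 KO and touched no peak in the other 7 lists. So were those of Ccdc40, Cbx8, Hmgcs1, Gtsf1, Chrna4, Lama5, Ccdc91 and Abhd5, and an Igf2 promoter at chr7:142661222-142661521. These genes are of many kinds, and the share of all autosomal promoters with this pattern is not given here. Another Igf2 promoter, at chr7:142666767-142667066 (minus strand), was wholly inside a peak in 6 lists and covered to 89.3% in P0 het and 68% in P0 KO.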

How the data were processed

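H3K9me3 peak positions of 8 groups were analysed. The positions are 0-based starts and ends as the authors deposited them, with no score. Per the submitters' processing notes, bcl2fastq 2.20, cutadapt 1.18, Bowtie2 2.3.4.1, deepTools 3.5.0, HOMER 4.10 and mm10 were used, with no role stated. The calling threshold, control and handling of replicates are not given in the sources used here, so each list was taken as 1 pooled set. Depth and threshold affect peak number and width. Chromosomes X, Y and M (29749 peaks) were left out. Covered length was summed over peaks by midpoint. The rest spans 2340.43 Mb, from the lowest peak start to each window. Gene bodies and promoters came from RefSeq GRCm38.p6, the assembly of mm10, of which 20085 autosomal promoters of 16457 genes were used. Intervals are Wilson intervals for shares, log-scale Poisson intervals for ratios and order-statistic intervals for medians. The covered-length ratio was checked by removing distal peaks at random from the P0 het list. Intervals, bins and tiles were not checked in this way.

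Named were outermost peaks called in under 4 lists, the longest and longest genotype-only members, extreme windows, the 10 genes with most cover, up to 5 genes per direction for each comparison, the chromosome 7 imprinted list and families by symbol. Members and lists were chosen with earlier results of these data known.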

Additional observations from a re-analysis of the deposited data

Results flagged for a closer look

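The genotype difference in the distal windows lay on opposite sides of 1 at different stages. KO to het covered length was above 1 in the earliest pair of lists (1.19), below 1 in the next (0.925, E16.5) and near 1 after birth (1.02 and 1.03). The difference between stages was not tested, since each group has 1 list. The rest of the autosomes had ratios on the same side of 1 at each stage, with 1.14, 0.918, 1.05 and 1.09, so the change of side is not particular to the ends.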

How the results depend on the processing

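Of 110 values of ratios under alternatives other than leaving out a chromosome, 97 stayed within the counting interval of the reported value. With windows of 1 Mb the cover ratio of distal windows to the rest turned to 1.05 from 0.805, the width ratio was 1.11 in place of 0.967, and KO to het relative to the rest was 0.890 at P0 and 0.877 at P3. With 2 Mb the cover and width ratios were 0.876 and 1.02. With 10 Mb the width ratio was 0.889, E16.5 over E13.5 relative to the rest was 0.942 in het and 0.913 in KO, and KO to het was 1.07 at P0 and 1.02 at P3. The cover ratio was 0.738 without the outermost 0.5 Mb and 0.885 with the rest weighted by gene number, which gives no width. The cause of these moves was not tested; the profile by distance gives the values that each window averages. Merging peaks less than 1 kb apart changed nothing, since no peaks lie so close. Its values are among the 97 and could not have moved.

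Leaving out each chromosome in turn, the cover ratio ran from 0.759 to 0.833 and the width ratio from 0.946 to 0.984. E16.5 over E13.5 ran from 1.02 to 1.08 in het and from 0.969 to 1.04 in KO. KO to het relative to the rest ran from 1.04 to 1.06 at E13.5, 1.00 to 1.02 at E16.5, 0.964 to 0.997 at P0 and 0.936 to 0.963 at P3. For the outermost 0.5 Mb, whose alternatives were chosen after seeing the data, cover ran from 1.04 to 1.19, and KO to het from 0.842 to 0.884 at P0 and 0.848 to 0.877 at P3. Requiring that 50% of a peak be covered raised the genotype-only shares, to 16.2% for het and 22.7% for KO at P0. No paired analysis was possible because each list carries no replicate number, and for the same reason no replicate could be left out. Depth limits what peaks could be called and is not known.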
